A study of Mus musculus with 17 samples.

Results

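The lens capsule basement membrane genes are 10 of the 21951 protein-coding genes of the GENCODE vM21 annotation. They were chosen by name for their products, with earlier results of these data known. Col4a1 and Col4a2 encode the chains of the main collagen IV network, Lama1, Lama5, Lamb1 and Lamc1 encode laminin chains, Nid1, Hspg2 and Sparc encode proteins that link or bind the collagen and laminin networks, and Itgb1 encodes an integrin receptor chain. All 10 symbols matched 1 protein-coding gene each, and their median length of 88.3 kb is above the 17.4 kb of all coding genes. A locus is the gene body, from the start of its first annotated transcript to the end of its last, with 5 kb on each side, on the mouse assembly mm10.

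A basement membrane is a thin sheet of matrix in which a laminin polymer and a collagen IV network are tied together by nidogen and perlecan, and cells hold on to it through integrins. The lens capsule is an unusually thick one that surrounds the whole lens, with the epithelium on its anterior side and the ends of the fiber cells on its posterior side, and both cell types add to it. H3.3 is a form of histone H3 that cells insert into chromatin independently of replication, often over active promoters and transcribed gene bodies, so its islands describe chromatin and do not measure RNA.

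H3.3 ChIP-seq was carried out on microdissected lens epithelium and on microdissected lens fibers of newborn CD1 mice, without any genetic change or treatment in either group, in 2 biological replicates each. Sample titles give day 1 after birth and the protocol gives P0.5; the labels give 150 pooled lenses per replicate and the methods another number. An island is a stretch of the genome in which the authors' caller found more ChIP reads than background in 1 library on its own. Tissue pieces are bulk samples, so a smaller share of cells with H3.3 at a gene and less H3.3 per cell cannot be told apart.

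The fiber libraries stood apart from the epithelium libraries in the whole genome, before any single gene was looked at. Epithelium replicates 1 and 2 held 10389 and 14434 islands with 1331369 and 1430373 reads, whereas fiber replicates 1 and 2 held 27059 and 35940 islands with 5041885 and 5359085 reads. Islands covered 45.4 and 48.9 Mb in epithelium against 178 and 188 Mb in fibers, a mean ratio of 3.88. Sequencing depth is unknown, because the lists hold only reads inside islands. How much of the difference at a gene goes with this general difference was not tested, and the covered shares of the 10 genes are therefore given also relative to each library's own total and to all coding genes, while cover along the genes, in exons and at starts is given unscaled.

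Islands covered more of the locus in both fiber libraries than in both epithelium libraries at all 10 genes, a count that dropped to 7 when each gene was ranked within its own library and to 5 when covered bp were divided by the library's total. The same direction without overlap was found at 45.0% of all coding genes, at 57% of the 7937 coding genes at least as long as the shortest of the 10 (Sparc, 28.7 kb), and at 78.6% of the 5246 coding genes with an island in all 4 libraries. None of the 10 covered more in both epithelium libraries, against 0.67% of coding genes. The median difference, fiber minus epithelium, was 49.0 percentage points over the 10 genes, 4.71 over all coding genes, 5.37 over the long genes and 25.2 over the genes with an island everywhere. With 2 libraries per group there are 6 ways to split them, so the exact two-sided permutation test gave p = 0.333 for the covered share of every one of the 10 genes, which is the smallest p it allows so no difference here can pass the usual threshold, and p measures only the spread between these libraries.

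**Figure D1:**
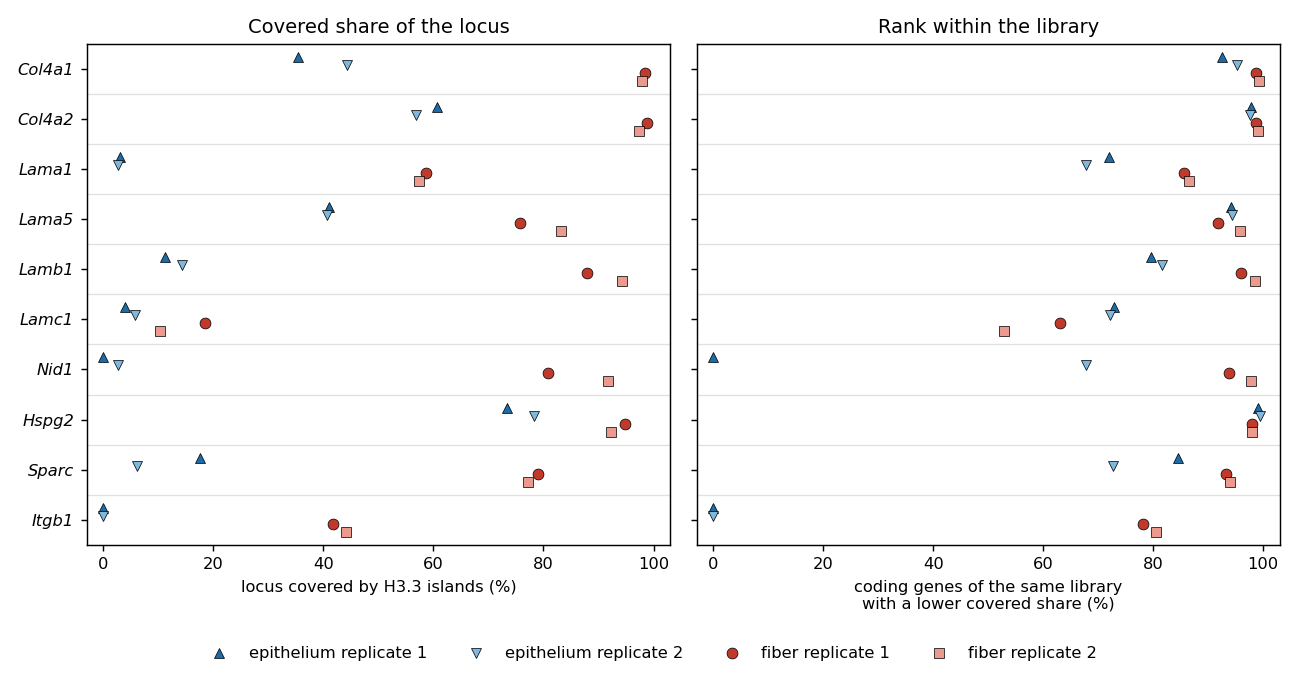
Percent of each locus covered by H3.3 islands (left, x axis) and percent of coding genes in the same library with a lower covered share (right, x axis) for the 10 genes, with 1 symbol per library. On the left every circle and square (fiber) lies to the right of every triangle (epithelium) of its gene, while on the right this holds for 7 genes and is turned round for Lamc1 and Hspg2.

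At 8 of the 10 loci at least 50% was covered in both fiber libraries, compared with 13.9% of all coding genes and 8.16% of the long ones. An island in all 4 libraries was likewise found at 8 of 10 loci, compared with 23.9% and 24.6%. The exceptions to the first count were Lamc1 and Itgb1, and the exceptions to the second were Nid1 and Itgb1. Summed over the 10 loci (957 kb, with the stretch that the adjoining Col4a1 and Col4a2 loci share counted for each), islands covered 264 and 276 kb in the epithelium libraries and 709 and 711 kb in the fiber libraries. The ratio of the means was 2.63, below the 3.61 of all coding loci, and as a share of everything covered in a library the 10 loci took more in epithelium (0.581% and 0.565%) than in fibers (0.399% and 0.379%).

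Collagen IV. Col4a1 and Col4a2 lie head to head on chromosome 8, and their products assemble into the trimer that forms the main collagen IV network of most basement membranes. Col4a1 spans chr8:11198423-11312826 on the minus strand and Col4a2 spans chr8:11312805-11449287 on the plus strand, so that their first exons share 22 bases at chr8:11312805-11312826. The stretch is shown because 1 island lay across it in each of the 4 libraries, and the capitals mark a GC box, the letters GGGCGG.
Col4a1 and Col4a2 shared bases, plus strand: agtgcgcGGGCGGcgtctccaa

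Both collagen genes were covered almost end to end in fibers and in patches in epithelium. Islands covered 35.4% of the Col4a1 locus in epithelium replicate 1, 44.4% in epithelium replicate 2, 98.4% in fiber replicate 1 and 97.9% in fiber replicate 2; below, pairs of values follow this order of replicates. For Col4a2 the covered share was 60.7% and 56.8% in epithelium and 98.8% and 97.4% in fibers. The groups did not overlap at either gene, with differences of 58.3 and 39.4 percentage points, and at Col4a2 the spread between replicates was small (58.7% ± 2.75 in epithelium and 98.1% ± 0.965 in fibers, SD, n = 2). The epithelium totals were alike at Col4a2 but their places were not. Of the bases covered in either epithelium library, 43.1% at Col4a2 and 35.5% at Col4a1 were covered in both. In fibers these shares were 96.2% and 96.3%. Over stretches covered in both replicates, which leave out the unshared epithelium cover, the Col4a2 difference was 60.8. With only islands at or above their library's median of reads per kb it was 65.4.

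The number of islands went the other way, with few long islands in fibers and many short ones in epithelium. Col4a1 had 9 and 16 islands in epithelium and 3 and 3 in fibers, and Col4a2 had 15 and 21 against 3 and 5. In fiber replicate 1 a single island of 116000 bp (chr8:11256201-11372200, 4013 reads) ran across both starts, and in fiber replicate 2 an island of 67600 bp (chr8:11302401-11370000, 2403 reads) did the same. These islands were longer than 99.99% and 99.97% of the islands of their libraries. The longest islands in epithelium were 8600 and 7400 bp at Col4a1 and 16400 and 10600 bp at Col4a2. Because the islands over the start count for both genes, Col4a1 and Col4a2 are not independent of each other, and the fiber islands over the end of Col4a2 reached Rab20, a neighbouring gene for a small GTPase.

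Relative to the libraries' totals, the collagen genes were higher in epithelium. Col4a1 held 971 and 1130 bp per Mb of island sequence in epithelium and 688 and 649 in fibers, and Col4a2 held 1960 and 1703 against 814 and 760. By rank among coding genes of the same library the direction was again toward fibers, from above 92.6% and 95.3% of genes in epithelium to above 98.7% and 99.2% in fibers for Col4a1, and from 97.7% and 97.6% to 98.8% and 99.1% for Col4a2. The epithelium ranks include many coding genes without any island, since only 30.4% and 35.4% of coding genes had one there. In fibers 54.5% and 60.7% had one.

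**Figure D2:**
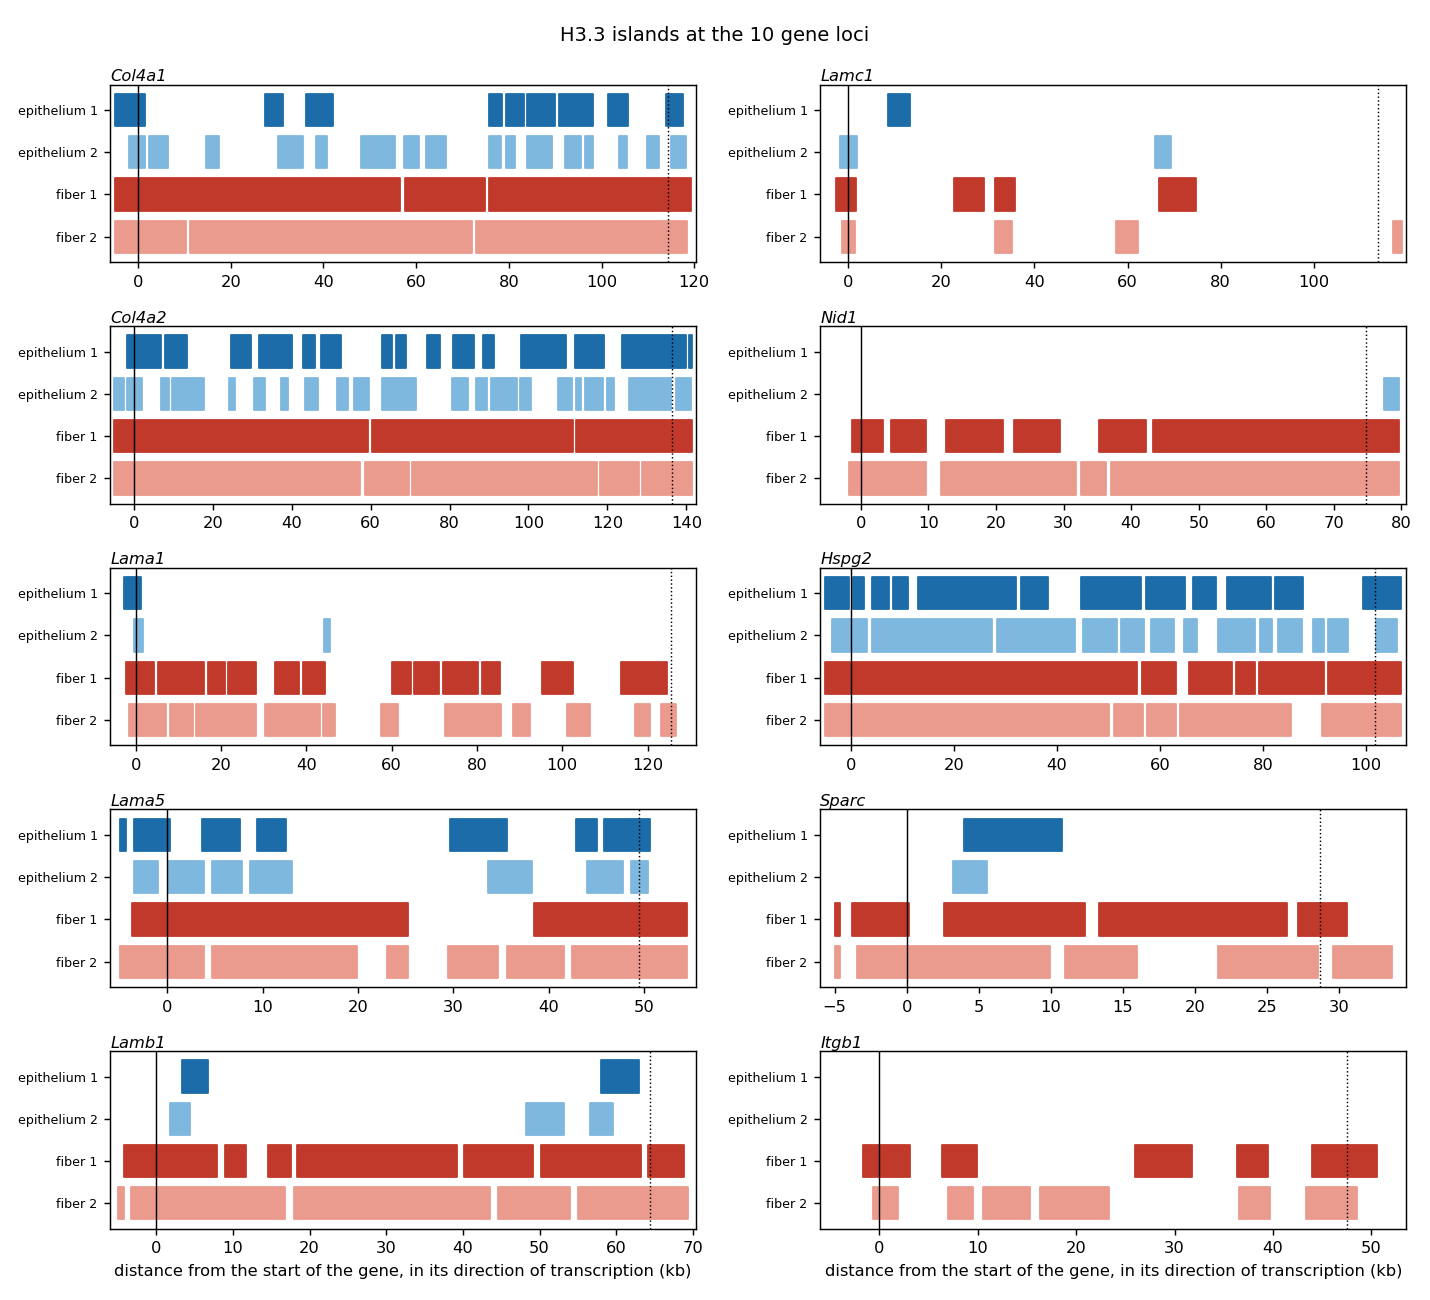
Islands of the 4 libraries at each of the 10 loci (bars, 1 row per library) against the distance from the start of the gene in its direction of transcription (kb), with the start as a solid line and the end as a dotted line. Fiber islands run almost without a break over Col4a1 and Col4a2, epithelium islands are absent at Itgb1, and at Lamc1 all 4 rows are mostly empty.

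Laminins. A laminin is a trimer of an alpha, a beta and a gamma chain, and Lama1, Lamb1 and Lamc1 encode the chains of laminin-111, the form best known from early basement membranes. Among these genes Lamb1 showed a large difference, Lama1 an intermediate one and Lamc1 a small one, while Lama5 was already covered in epithelium. At Lamb1 (chr12:31265234-31329644, plus strand), islands covered 11.3% and 14.2% of the locus in epithelium and 87.9% and 94.4% in fibers. The difference of 78.4 percentage points was many times the spread between replicates (12.8% ± 2.09 against 91.1% ± 4.57, SD, n = 2). Of the bases covered in either epithelium library 15.9% were covered in both, against 83.2% in fibers. In both epithelium libraries the islands lay in the early and the late part of the gene, from 3.37 kb after the start in replicate 1 and from 1.77 kb in replicate 2, and none lay over the start itself. In both fiber libraries an island crossed the start, and the longest islands, of 20800 and 25600 bp, lay further inside. Fiber islands at the end of the gene reached Dld, which encodes a dehydrogenase subunit of mitochondrial enzyme complexes.

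The 150 bases before the Lamb1 start (chr12:31265084-31265233, plus strand) are shown because they were wholly inside an island in both fiber libraries and in none of epithelium, with capitals for the GC box read on the other strand (CCGCCC).
Lamb1 upstream: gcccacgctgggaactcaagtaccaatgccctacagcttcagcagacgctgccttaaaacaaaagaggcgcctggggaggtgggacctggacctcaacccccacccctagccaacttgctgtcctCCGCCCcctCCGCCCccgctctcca

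Lama1 (chr17:67697259-67822647, plus strand), the alpha chain of laminin-111, was nearly bare in epithelium, with 3.10% and 2.66% of its locus covered. In fibers 58.6% and 57.3% was covered, by 12 and 11 islands in place of 1 and 2. No fiber island here was long (10800 and 14000 bp at most), and the replicates placed them differently, since 54.5% of the bases covered in either fiber library were covered in both. All of the epithelium cover lay around the start or within 45.5 kb of it, and the remaining 84.8 kb held no epithelium island. The difference of 55.1 percentage points was 18.5 when only islands at or above their library's median read density were kept, and 7.02 with overlapping groups when the same number of the densest islands was taken from each library.

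Lama5 (chr2:180176373-180225859, minus strand) encodes the alpha chain of the laminins of later and adult basement membranes. Its locus was covered to 41.1% and 40.7% in epithelium and to 75.7% and 83.2% in fibers, by 7 and 7 against 2 and 6 islands. The groups did not overlap (40.9% ± 0.308 against 79.4% ± 5.30, SD, n = 2). Of the bases covered in either epithelium library 48.1% were covered in both, against 74.1% in fibers. A middle stretch of 16.6 kb, from 13.1 to 29.7 kb after the start, had no epithelium island, and 4.20 kb of it had none in fibers either. Islands at the end of Lama5 were shared in all 4 libraries with Adrm1, which encodes a ubiquitin receptor of the proteasome.

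Lamc1 (chr1:153218922-153332786, minus strand), the gamma chain shared by most laminins, was the least covered of the 10 genes in fibers. Islands covered 3.88% and 5.81% of its locus in epithelium and 18.4% and 10.4% in fibers. The groups did not overlap, but the gap from the higher epithelium to the lower fiber library was only 4.58 percentage points, less than the SD of the fiber replicates (5.66). Without fiber replicate 1 the difference was 5.55 in place of 9.56 percentage points. Its rank within the library was lower in fibers, above 63.1% and 53.0% of coding genes, than in epithelium, above 72.8% and 72.1%. When the same number of islands was taken from each library by reads, the 2 fiber libraries had none at Lamc1 and the difference turned to -4.84. The epithelium replicates had no covered base in common here, the fiber replicates shared 21.9% of theirs, and a stretch of 42.2 kb, from 74.8 to 117 kb after the start, the last of it beyond the end of the gene, had no fiber island.

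Linker and matrix-binding proteins. Nid1 was almost without islands in epithelium, and Hspg2 was covered in every library. Nid1 (chr13:13437551-13512269, plus strand) encodes nidogen-1, which bridges laminin and collagen IV. Epithelium replicate 1 had no called island at the locus and epithelium replicate 2 had 1 of 2600 bp (66 reads) beyond the end of the gene, covering 2.68% of the locus. Fiber replicates 1 and 2 covered 80.8% and 91.7% of it with 6 and 4 islands, of which the longest were 43400 and 44600 bp. The difference of 84.9 percentage points was the largest of the 10 genes. With only islands at or above their library's median read density it was 72.3, below Lamb1 (83.2) and Col4a1 (76.1). Of the stretches of 75 bases at Nid1, the length of a read, 12.6% occur more than once in the assembly, whereas over the other 9 whole loci no more than 1.39% do. Inside fiber islands the share was 10.7% at Nid1 and 0.701% at Sparc, and outside them it was 37.0% and 16.4%. At Lama5, Lamb1, Lamc1 and Hspg2 it was higher inside fiber islands than outside.
Nid1 upstream, chr13:13437401-13437550, plus strand, shown as a start inside an island in both fiber libraries and in neither of epithelium, capitals GC box: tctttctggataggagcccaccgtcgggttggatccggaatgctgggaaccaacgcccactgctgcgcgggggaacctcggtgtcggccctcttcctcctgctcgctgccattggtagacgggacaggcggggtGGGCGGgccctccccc

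Hspg2 (chr4:137468769-137570630, plus strand) encodes perlecan, the large heparan sulfate proteoglycan of basement membranes. It was the most covered of the 10 genes in epithelium, with 73.4% and 78.3% of the locus in 12 and 13 islands, and reached 94.8% and 92.3% in 6 and 5 islands in fibers. The groups did not overlap, with a difference of 17.7 percentage points, or 27.9 over stretches covered in both replicates. Relative to other genes the direction was the opposite, from above 99% and 99.4% of coding genes in epithelium to above 98.0% in both fiber libraries, and with equal numbers of islands taken by density the difference was -9.46 with overlapping groups. Islands joined Hspg2 to Ldlrad2, a gene for a receptor-like protein beyond its end, in epithelium replicate 1 and in both fiber libraries, and to 1700013G24Rik, a gene before its start, in fiber replicate 2.
Hspg2 upstream, chr4:137468619-137468768, plus strand, shown for its 4 GC boxes (capitals) and inside an island in all libraries but epithelium replicate 1: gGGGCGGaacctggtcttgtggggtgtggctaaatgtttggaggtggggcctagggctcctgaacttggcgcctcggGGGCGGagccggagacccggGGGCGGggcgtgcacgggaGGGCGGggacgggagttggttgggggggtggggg

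Sparc (chr11:55394500-55423183, minus strand) encodes a secreted protein that binds collagen IV and affects how it is laid down. Islands covered 17.6% and 6.20% of its locus in epithelium, 1 island in each library, and 79.1% and 77.3% in fibers, 5 islands in each. The epithelium replicates differed from each other by more than the fiber replicates (11.9% ± 8.04 against 78.2% ± 1.28, SD, n = 2), and the difference of 66.3 percentage points was larger than both, or 23.8 with equal numbers of islands taken by density. Both epithelium islands lay early in the gene, at 55412401-55419200 and 55417601-55420000 of the chromosome, and the next 22.9 kb toward and past the end had none. The annotations differ on the start of Sparc: the RefSeq promoter window used below lies inside the GENCODE gene, at chr11:55420031-55420330, just beside the island of epithelium replicate 2.

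Receptor. Itgb1 (chr8:128685654-128733200, plus strand) encodes integrin beta-1, the chain common to most laminin and collagen receptors. It was the 1 gene of the 10 with no called island in either epithelium library. In fibers 41.7% and 44.1% of the locus was covered by 5 and 6 islands, the longest of which were 6600 and 7000 bp. The total was alike in the fiber replicates but its place was not, since 35.0% of the bases covered in either were covered in both. The difference of 42.9 percentage points was 22.2 over stretches covered in both replicates, and 6.43 and 11.8 with equal numbers of islands taken by density or by reads. An island of fiber replicate 1 was shared with Ccdc7a, a gene for a coiled-coil protein.
Itgb1 upstream, chr8:128685504-128685653, plus strand, shown as a start inside an island in both fiber libraries and in neither of epithelium, without a GC box in these bases: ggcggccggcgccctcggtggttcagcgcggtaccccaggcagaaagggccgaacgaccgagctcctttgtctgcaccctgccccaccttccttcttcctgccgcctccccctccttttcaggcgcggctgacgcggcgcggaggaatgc

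The order of the genes differed between the compartments. In fibers the mean covered share fell in the order Col4a1, Col4a2, Hspg2, Lamb1, Nid1, Lama5, Sparc, Lama1, Itgb1 and Lamc1. The replicate ranges of neighbours in this order overlapped, except between Col4a2 and Hspg2 and at each step from Sparc to Lama1, Itgb1 and Lamc1. In epithelium the order was Hspg2, Col4a2, Lama5, Col4a1, Lamb1, Sparc, Lamc1, Lama1, Nid1 and Itgb1. There the ranges of Lama5 and Col4a1, of Lamb1 and Sparc, of Lama1 and Nid1, and of Nid1 and Itgb1 overlapped, and those of the other neighbours did not.

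The number of islands split the 10 genes by how they were covered in epithelium. Hspg2, Lama5 and both collagen genes had fewer islands in both fiber libraries (1.78% of coding genes did), and the other 6 genes had more (28.2% did). Over the 10 loci there were 48 and 66 islands in epithelium and 53 and 54 in fibers, with an island at both collagen genes counted for each. The median over the genes of the longest island was 5500 and 4200 bp in epithelium and 24900 and 20400 bp in fibers. Only at Lamc1 did an epithelium island exceed a fiber island in this measure, 4800 bp in epithelium replicate 1 against 4600 bp in fiber replicate 2.

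**Figure D3:**
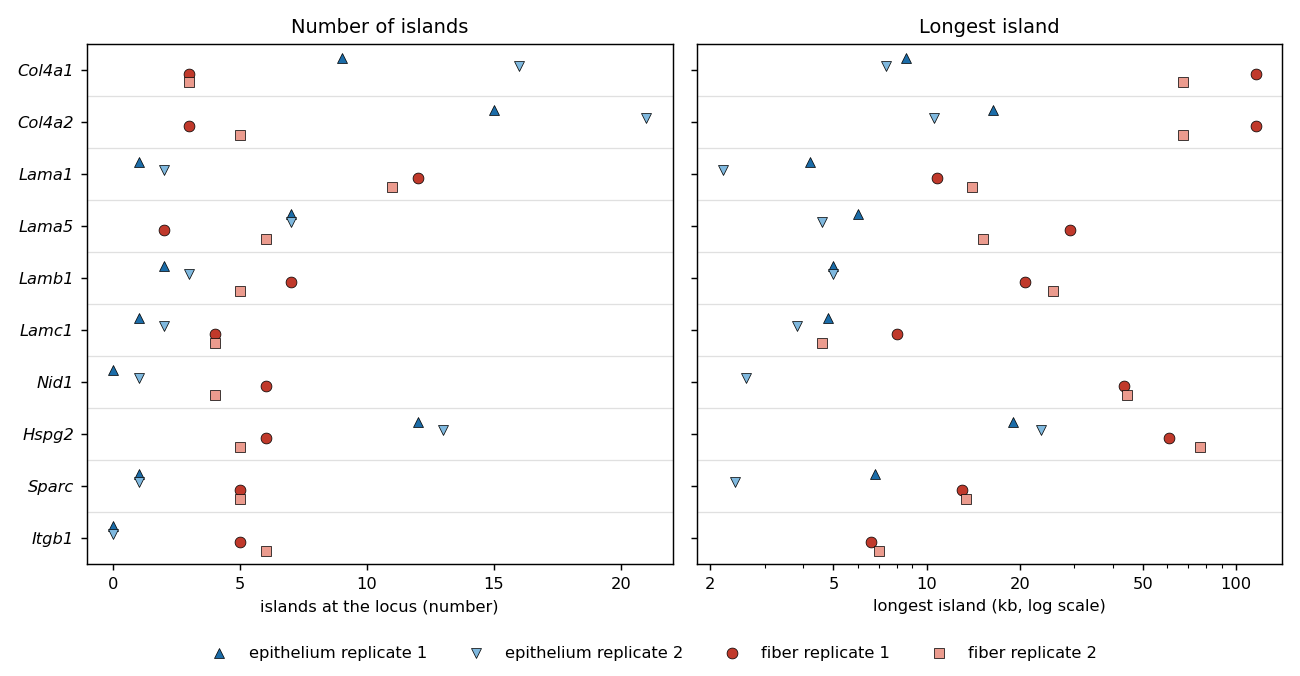
Number of islands at each locus (left, x axis) and length of the longest island in kb on a log scale (right, x axis; no symbol where there was no island) for the 10 genes, with 1 symbol per library. Col4a1, Col4a2, Lama5 and Hspg2 had fewer islands in fibers and the other genes more, while the longest island was longer in fibers at every gene except Lamc1, where the groups overlapped, and Nid1 and Itgb1, where 1 or both epithelium libraries had none to compare.

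The density of reads inside islands changed much less than the covered length. It is the summed reads of the islands that touch a locus divided by their summed length, and it is not normalized for depth. At the 8 genes with islands in all 4 libraries the median ratio of fiber to epithelium was 1.09, compared with 1.02 over the 5246 coding genes with islands in all 4 libraries. Density was higher in both fiber libraries at 5 of the 8 (Col4a1, Col4a2, Lama5, Lamb1 and Hspg2), where the background was 30.8%, and higher in both epithelium libraries at 1 (Lama1), where the background was 16.3%. When reads were divided by the library's total in islands the median ratio was 0.290, so that the direction rests on the scale. The total is the same for every gene of a library, so this division lowers the ratio at all coding genes too. Their median on this scale was not computed.

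Col4a1 had 28.0 and 30.1 reads per kb of island in epithelium and 34.7 and 36.0 in fibers, the largest step upward among the 8. Lama1 had 28.6 and 49.2 in epithelium, from islands of 4200 bp in all in the former and 3600 bp in the latter, and 27.7 and 26.6 in fibers. Lamc1 and Sparc overlapped between the groups (exact permutation p = 1 for each, against 0.333 for the other 6). The longest islands of the collagen genes in fibers were denser than 91.3% and 91.6% of the islands of their libraries, whereas those of Lamc1 were denser than only 0.318% and 2.33%.

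Ranks place a gene among the coding genes of its own library, but they move with how many genes have islands at all, since 30.4% and 35.4% of coding genes had one in epithelium and 54.5% and 60.7% in fibers, so that a small epithelium island already ranks high. Of the 10 genes, 7 ranked higher among coding genes in both fiber libraries (22.0% of coding genes did) and 2, Lamc1 and Hspg2, ranked higher in both epithelium libraries (11.3% did). Among the 8 with islands in all 4 libraries the counts were 5 and 2, where 18.6% and 44.2% of such genes fell in each direction. Lama5 stayed between 91.9% and 95.7% in the fiber libraries and at 94.2% in both epithelium libraries. Lamb1 moved from above 79.5% and 81.5% of coding genes to above 95.9% and 98.5%. Relative to the total cover of the library, 5 genes (Lama1, Lamb1, Nid1, Sparc and Itgb1) held more in both fiber libraries and 4 (Col4a1, Col4a2, Lama5 and Hspg2) more in both epithelium libraries, with 21.5% and 14.6% of coding genes in these directions.

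Along the gene bodies, fiber islands were spread from start to end. In each of 10 equal bins from start to end the median over the genes was between 74.2% and 100% covered in the fiber libraries and between 0% and 28.9% in the epithelium libraries. The highest epithelium medians, 19.4% and 28.9%, were in the bin at the start. In the 5 kb beyond the end the medians were 93.6% and 91.0% in fibers and 0% and 9.72% in epithelium. Median covered shares in fibers were 85.9% and 88.3% for exons and 83.0% and 85.5% for introns. In epithelium replicate 1 they were 7.90% for exons and 20.1% for introns, and in epithelium replicate 2 they were 17.2% and 11.7%.

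**Figure D4:**
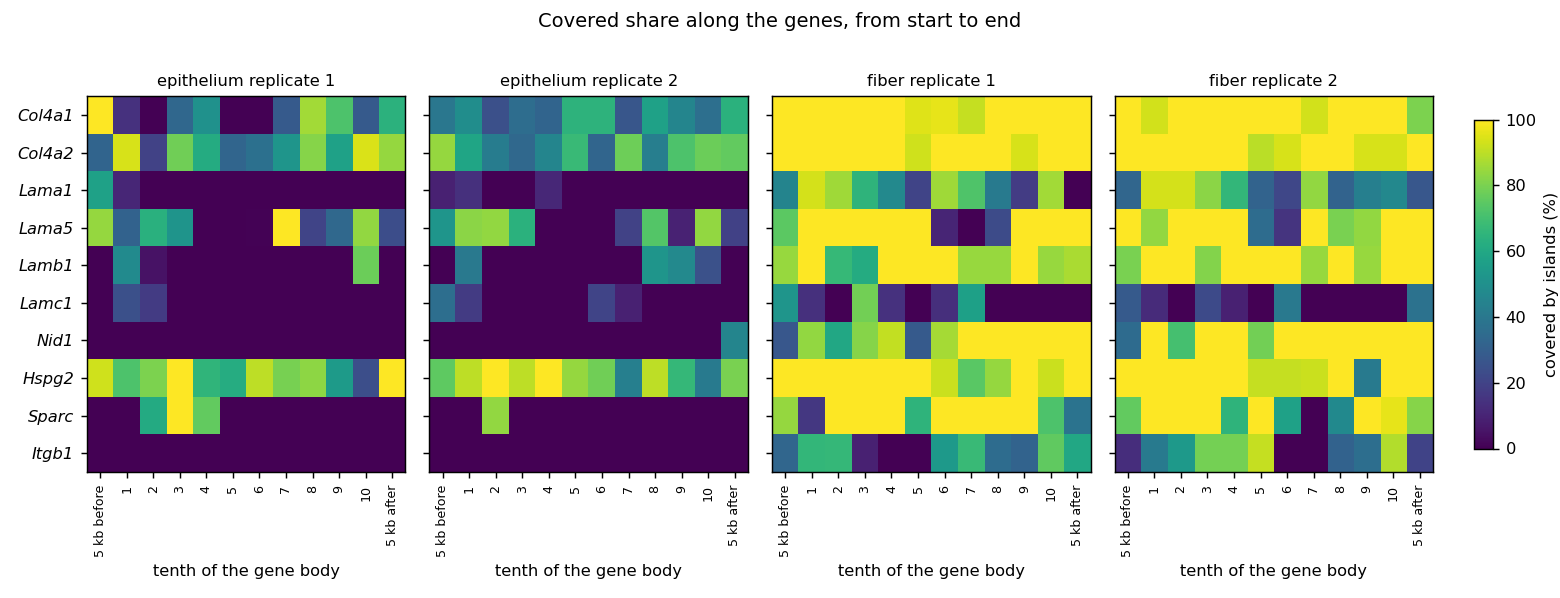
Percent covered by islands (color, 0 to 100) in the 5 kb before the start, in 10 equal bins of the gene body and in the 5 kb after the end (x axis) of the 10 genes (rows), 1 panel per library. On the unscaled share plotted here the fiber panels are filled across most genes except Lamc1, while the epithelium panels are filled mainly at Hspg2, Col4a2, Col4a1 and parts of Lama5.

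At the starts of the genes, some were covered in fibers alone and others in epithelium too. RefSeq promoter windows of 300 bases, 250 of them upstream, were held for 8 of the 10 genes (not for Lama1 and Lamc1) and for 16522 coding genes, on the same assembly. All 8 windows were covered in full in both fiber libraries, compared with 32.1% of windows, and those of Lamb1, Nid1, Sparc and Itgb1 were covered there and in neither epithelium library, compared with 16.4%. Only the Col4a1 and Col4a2 windows, which overlap, were covered in full in all 4 libraries, compared with 5.97%. Lama5 was covered also in epithelium replicate 1 and Hspg2 in epithelium replicate 2.

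The upstream 250 bases of these windows were searched on both strands for GGGCGG (GC box), CCAAT and TATAAA, which were found in 44.3%, 36.0% and 11.9% of all windows. GC boxes numbered 5 at Hspg2, 4 at Lama5, 2 at Col4a2 and at Lamb1, 1 at Nid1 and at Itgb1, and 0 at Col4a1 and Sparc. The letters CCAAT were found once each at Col4a1, Col4a2, Lamb1 and Nid1, and TATAAA at none of the 8. The Sparc window had 54.0% G and C and 4 CG pairs, close to the medians of all windows for the former (56.0%) and below that for the latter (10), whereas Col4a1 had 74.4% and 31.

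The capsule genes were set beside other genes of the same pathways, counted by the same rule, with counts on the 2 relative scales in the same sentence. Of all coding genes, 22.0% were higher in fibers and 11.3% in epithelium by rank within the library. Relative to the library's total these shares were 21.5% and 14.6%. Of 21 other collagen IV, laminin, nidogen and proteoglycan genes, 10 were covered more in both fiber libraries, close to the 45.0% of all coding genes, and none in both epithelium libraries, with a median difference of 2.09 percentage points, whereas by rank within the library 6 were higher in fibers and 5 in epithelium, and relative to the library's total 7 and 5. Pxdn, which encodes the peroxidase that crosslinks collagen IV, had 0% and 18.7% covered in epithelium and 96.7% and 86.0% in fibers. Tinagl1, a matricellular protein gene, had 44.5% and 52.3% against 64.8% and 77.4%. Nid2, the relative of Nid1, had 0% in both epithelium libraries and only 5.39% and 17.0% in fibers. No island was called in any library at Lama2, Lama4, Col4a5 or Col15a1, and Col4a3, Col4a4 and Col4a6 were covered to at most 5.65%, so the wide fiber cover of the collagen IV genes was seen at Col4a1 and Col4a2 and at no other of the 6.

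Of 20 other basement membrane receptors 11 were covered more in both fiber libraries, between the 45.0% of all coding genes and the 57% of long ones, and none in both epithelium libraries (median difference 15.7 percentage points), and by rank 8 were higher in fibers and 3 in epithelium, and relative to the total 8 and 4. All 10 integrin adhesion linkers were covered more in fibers, against 45.0% of all coding genes (median difference 27.5), with 5 higher in fibers and 1 in epithelium by rank and also relative to the total. For comparison with both lists, 22.0% of all coding genes were higher in fibers and 11.3% in epithelium by rank, and 21.5% and 14.6% relative to the total. The syndecan gene Sdc1 had 12.3% and 0% in epithelium and 88.9% and 85.8% in fibers. Itgb5, an integrin beta chain, had 10.6% and 17.0% against 76.5% and 77.2%, and Dag1, for the laminin receptor dystroglycan, 9.47% and 0% against 60.3% and 74.7%. Zyx (zyxin) had no epithelium island and 52.5% and 49.4% in fibers, Ilk (integrin-linked kinase) had 51.4% and 13.5% against 64.9% and 87.0%, and Pxn (paxillin) had 58.0% and 39.4% against 92.0% and 83.3%.

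Of 14 genes for collagen processing and secretion 12 were covered more in both fiber libraries, against 45.0% of all coding genes (median difference 23.5 percentage points), but by rank 3 were higher in fibers and 2 in epithelium, and relative to the total 3 and 4. For this list and the next, 22.0% of all coding genes were higher in fibers and 11.3% in epithelium by rank, and 21.5% and 14.6% relative to the total. The 3 of 14 in fibers was close to these shares on both scales. P4ha1 and P4hb, subunits of the prolyl hydroxylase of collagen, stood at 6.33% in both epithelium libraries against 95.7% and 100%, and at 22.0% and 42.1% against 78.2% and 91.3%. Serpinh1, the collagen chaperone, had 42.5% and 22.4% against 78.7% and 80.6%. Of 13 genes for matrix turnover and relatives of Sparc 8 were covered more in fibers, against 45.0% of all coding genes and 57% of long ones, with a median difference of 6.74 percentage points (5 by rank and 3 relative to the total, with 4 in epithelium on either scale), led by Adamts18 (7.30% and 16.7% against 97.2% and 96.0%), Timp3 (21.0% and 6.09% against 86.6% and 79.8%) and Timp2 (15.8% and 31.9% against 76.3% and 73.5%), proteins that cut the matrix or inhibit those that do. Mmp15, a membrane-bound matrix metalloproteinase, was the only gene of these 5 lists with more cover in both epithelium libraries, 18.3% and 27.4% against 7.92% and 9.14%.

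Marker genes of the compartments did not all follow the labels. Over all coding genes, more cover in both fiber libraries was found at 45.0%, and the shares higher in fibers and in epithelium were 22.0% and 11.3% by rank and 21.5% and 14.6% relative to the total. All 9 lens fiber markers were covered more in both fiber libraries (7 by rank, and 3 relative to the total with 4 the other way), among them Lim2 (0% in both epithelium libraries and 100% in both fiber libraries), Bfsp1 (0% against 95.8% and 95.3%) and Gja3 (0% and 13.7% against 97% in both). Of the 6 lens epithelium markers 5 were also covered more in fibers, though by rank only 1 (Pdgfra) was and 2 (Pax6 and Gja1) were higher in epithelium, and relative to the total none was and 3 (Pax6, Cdh1 and Gja1) were higher in epithelium. Among the 5 with more cover in fibers were Foxe3 (0% and 60.7% against 88.5% and 86.6%), Sox2 (0% and 33.2% against 56.9% in both) and Pdgfra (20.8% and 11.8% against 67.2% and 75.8%). The sixth, Gja1, overlapped, with 5.12% and 12.5% in epithelium and 0% and 10.2% in fibers. Summed over the loci, the epithelium markers were covered to 24.2% and 30.6% in epithelium and 53.5% and 59.9% in fibers.

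Vessels and mesenchyme around the lens also make collagen IV and laminin, so their markers were counted too. Of 7 blood vessel markers 3 were covered more in both fiber libraries, close to the 45.0% of all coding genes, but none on either relative scale, where Pecam1 was higher in epithelium by rank, and Kdr, Tek, Tie1 and Emcn had no island in any library. Summed over the list, cover was 1.91% and 1.16% in epithelium and 5.38% and 3.70% in fibers, with Cldn5 the most covered (43.8% and 0% against 80.6% and 47.3%), then Pecam1 (4.32% and 2.26% against 12.6% and 7.52%) and Cdh5 (0% and 6.43% against 8.32% and 9.83%). Of 7 mural and mesenchymal markers 1, Pdgfrb, was covered more in fibers, on neither relative scale (6.01% and 20% against 34.1% and 38.5%), and Rgs5, Col1a1, Col3a1, Dcn and Lum had no island. Cspg4 overlapped between the groups, with 44.5% and 7.14% in epithelium and 16.9% in both fiber libraries, and was higher in epithelium on both relative scales. The summed cover was 8.03% and 4.61% against 8.60% and 9.37%.

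Of 6 macrophage markers 3 were covered more in fibers, close to the 45.0% of all coding genes, but none on either relative scale, where Cx3cr1 was higher in epithelium on both, namely Aif1 (0.0663% and 6.70% against 22.6% and 37.2%), Csf1r (0% and 17.3% against 33.1% and 25.5%) and Cx3cr1 (7.63% and 14.6% against 29.2% and 22.7%), and Ptprc, Adgre1 and C1qa had no island. Their summed cover was 2.69% and 6.77% in epithelium and 13.7% and 11.2% in fibers. Among retina and pigmented epithelium markers, Pmel had no island in epithelium and 2.33% and 7.70% covered in fibers, and Crx, Otx2, Tyr and Mlana had no island in any library. The part of these cells in the islands at the capsule genes was not tested.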

How the data were processed

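Reads (75 nt, single-end) were aligned by the authors to mm10 with BWA, and SICER2 was run on every library separately, using windows of 200 bp, gaps of 600 bp and an FDR of 0.01. Each deposited list holds the islands with their read count, not normalized. Tool versions, how duplicate reads were handled, read filters and whether the input served as control are not given in the sources used here. The pooled input and the bisulfite libraries were not analysed here.

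Loci came from GENCODE vM21, and sequences from RefSeq's copy of the same assembly. For each locus the covered share, the number of islands with at least 1 bp inside, and their reads per kb were computed per library and compared by an exact two-sided permutation test. Groups were called different in direction where the ranges of their 2 libraries did not overlap, and such counts were set beside the same over all protein-coding genes. In the other lists, up to 3 genes in each direction with the largest difference were named, and neighbours were named where they shared an island. A gene of the retina list, and the counts that include it, are not reported here. Members and lists were chosen with earlier results of these data known. The labels and methods call the replicates biological, and do not say which animals or litters each came from.

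Depth per library is unknown, so no counting interval was computed, and 2 libraries per group limit the precision. Repeated stretches of 75 bases were counted on both strands of the assembled chromosomes. Alternatives changed the locus, the islands kept, their overlap and the scale, and left out each library. Python 3.11.15 with numpy 2.4.6, pandas 2.3.3, numba 0.67.0 and matplotlib 3.10.9 were used, and the steps were tested on simulated islands.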

Additional observations from a re-analysis of the deposited data

How the results depend on the processing

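Higher cover in both fiber libraries was found at 10 genes in all settings but 4: 7 and 9 with the 10389 islands of each library with the most reads per kb or the most reads (Lama1, Lamc1 and Hspg2 overlapped in the former, Lamc1 was lower in fibers in the latter), and, as scales chosen after seeing the data, 7 by rank within the library and 5 relative to its total cover. The median difference of 49.0 percentage points was 52.0 without a flank, 46.9 with 10 kb, 42.9 for islands at or above the library median of reads per kb, 28.4 and 40.3 with equal numbers of islands by density or reads, 47.5 for islands with most of their length in the locus, 51.3 with islands within 1 kb joined, 47.7 for stretches in both replicates, and 48.4 to 49.3 without 1 library. The ratio of summed cover, 2.63, was 3.48 for islands at or above the median density, 2.04 and 2.38 with equal numbers by density or reads, 3.76 for stretches in both replicates, 2.57 to 2.69 without 1 library, and reversed to 0.678 as a share of the library's total. The ratio of reads per kb, 1.09, was 1.12 with 10 kb, 1.14 with equal numbers by density, and 1.08 to 1.11 without 1 library. It reversed to 0.290 after division by the library's total, which is the same for every gene of a library. The ratio has no value for stretches in both replicates, which carry no count. Of 140 single-gene differences, computed without the 2 relative scales (on which 2 genes by rank and 4 by total cover were higher in epithelium), 138 stayed above 0, the exceptions being Lamc1 at -4.84 (equal numbers by reads) and Hspg2 at -9.46 (equal numbers by density), and the cause was not tested. Islands in all 4 libraries, at 8 genes, ranged from 6 to 8 genes where no library was left out. Without 1 library, 8 or 9 genes had islands in all libraries kept, the 9 without epithelium replicate 1. Replicate numbers are shared by the groups, but nothing says that they mark a shared origin, and the replicate differences correlated at 0.0228 over 5246 genes; with the replicate number as a block the exact permutation p was 0.5, the smallest that 2 pairs allow.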
